A study of Mus musculus with 11 samples.

Results

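Mouse bone marrow derived macrophages (BMDM) in the M0 state received a GapmeR that targets MERRICAL, a long noncoding RNA (KD), or the GapmeR labelled NS, and their total RNA was sequenced. The comparison is M0 KD against M0 NS, and its members are the 6 of 11 libraries that the labels name M0, with every named gene of the count table. Both groups were C57BL/6 cells from bone marrow, exposed to a GapmeR for 16 hours, and each had 3 libraries, numbered 1, 2 and 4. The other libraries, 3 of M1 NS and 2 of M1 KD, entered the test of whether the effect differed between the states, the values given for M1 and 1 alternative fit. The sources used here do not give what the numbers stand for, how the M0 state was set up, or whether libraries came from separate cultures or animals. The p-values therefore reflect only how far these libraries differ from each other, and that spread may be technical. The table lists no gene called MERRICAL, and its level was therefore not analysed here.

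A GapmeR is an antisense oligonucleotide with a DNA core that directs RNase H to cut the RNA it pairs with. Bone marrow derived macrophages grow out of marrow progenitors under the growth factor CSF1, and cells of such cultures can still divide. Marrow also holds developing neutrophils, which store antimicrobial proteins such as lactoferrin in granules, and macrophages move towards chemokines through receptors coupled to G proteins. The title of the series names macrophage chemotaxis, and M0 is the state without the activation that the M1 label names.

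The 6 libraries held 33472828 to 40444283 counts over named genes, and 13683 of 42375 genes passed the filter on low counts. The 8 macrophage markers, among them the CSF1 receptor gene Csf1r and Cd68, summed to 27877 to 31018 CPM in M0 NS and 22915 to 24232 CPM in M0 KD. CPM are counts relative to a library total, which TMM factors have adjusted except in these marker sums. Macrophage markers were thus abundant in all 6 libraries, their sums did not overlap between the groups, and none of the 8 genes was called. Markers of neutrophils and their precursors were present too, at 1355 to 2544 CPM in M0 NS and 762 to 850.0 CPM in M0 KD. Of the other cell types listed, megakaryocyte markers summed to 226 to 326 CPM in M0 NS and 201 to 293 CPM in M0 KD (1 of 3 called, lower), fibroblast markers reached 14 and dendritic cell markers 11.5 CPM. Those of mast cells and of erythroid cells stayed under 3.8 CPM, and those of B cells and of T and NK cells under 1.11 CPM. Counts of replicates 1 and 2 were closest to each other within both groups, with correlations of log2 CPM of 0.996 for each pair. Replicate 4 stood apart from them, at 0.976 to 0.982 in M0 NS and 0.985 to 0.987 in M0 KD. Every pair of replicates differed by more than sampling noise, with a chi-square of at least 15 per degree of freedom, so none was a repeat deposit.

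After the MERRICAL GapmeR, genes of mitosis and DNA replication were higher and genes of neutrophil granules were lower. Of NF-kappaB subunit and feedback genes 8 of 30 were lower, and single genes of lipid uptake, complement and G protein signalling changed, among them Rgs1 (1.42) and Cd36 (1.11). With edgeR's quasi-likelihood test and Benjamini-Hochberg adjustment over all genes tested, 1103 genes (8.06%) were called at an adjusted p under 0.05. Of these 545 (3.98%) were higher in M0 KD and 558 (4.08%) were lower, and no gene of the 1103 had overlapping CPM ranges. Over all genes tested the ranges did not overlap for 5130 (37.5%), higher for 18.7% and lower for 18.8%. Most called changes were small. The median log2 fold change was 0.53 among called genes that rose and -0.43 among those that fell, and 67 rises and 42 falls reached 2-fold. The calls depended on replicates 1 and 2. Leaving out replicate 1 or 2 of either group gave 0 calls with edgeR (3441 and 3473 genes at an unadjusted p under 0.05 for M0 NS, 2779 and 3319 for M0 KD), whereas it called 1726 without M0 NS replicate 4 and 403 without M0 KD replicate 4. With all 11 libraries sharing 1 estimate of the spread it called 0 genes, with 1947 at an unadjusted p under 0.05. When libraries were scaled by their totals alone, 873 of 1237 called genes (70.6%) were higher, against 49.4% with TMM factors.

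The direction of change followed the base composition of the transcripts across the whole table. Called genes that rose had a median GC content of 41.8% and a median transcript length of 4436 bases, and those that fell had 56.8% and 2566 bases, beside 49.6% and 3207 bases over all genes tested. In the lowest of 10 equal bins of GC content, up to 41.3%, the median log2 fold change was 0.32, and 17.7% of genes were called higher. In the highest bin, from 57.7%, it was -0.30, and 16.6% were called lower. Each library was set against the mean of these 6, so slopes of opposite sign in the 2 groups are partly built in. In M0 NS the deviation rose from the lowest to the highest bin. It ran from -0.065 to 0.068 in replicate 1, from -0.071 to 0.073 in replicate 2 and from -0.32 to 0.26 in replicate 4. In M0 KD it fell, from 0.19 to -0.15, from 0.12 to -0.098 and from 0.16 to -0.15 in replicates 1, 2 and 4. The slopes thus differed in size and the steepest was that of M0 NS replicate 4. Without that library the medians of the outer bins were 0.24 and -0.21. After a smooth trend in GC content, exon number and transcript length was removed from each library, they were 0.02 and -0.02 and edgeR called 19 genes (0.139%), with 2252 at an unadjusted p under 0.05. Of the 19, 3 (Casc5, Gyk and A630033H20Rik) have no known transcript properties and were not adjusted. Of the 1057 called genes with known properties 1047 kept the sign of their change and 14 their call. Whether RNA quality or library preparation differed between the groups was not tested. In M1 the slope ran the other way, from -0.22 in the lowest bin to 0.18 in the highest.

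**Figure D1:**
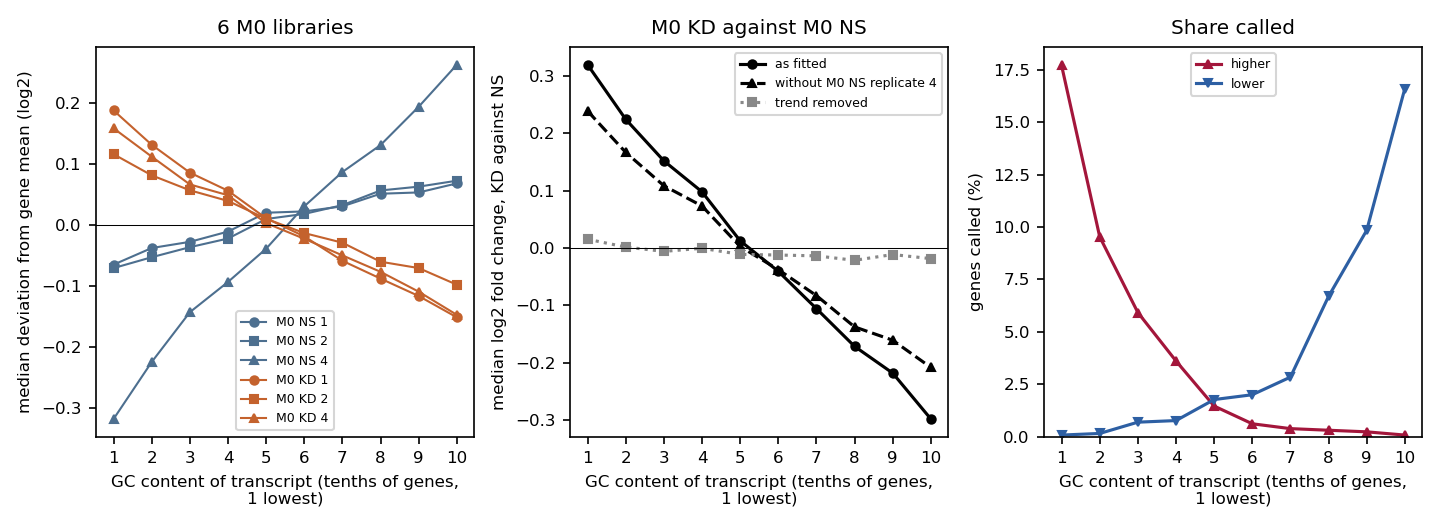
The tested genes in 10 equal bins of transcript GC content (x axis, 1 lowest) against the median deviation of each M0 library from the gene mean in log2 CPM (left), the median log2 fold change of M0 KD against M0 NS (middle) and the percent of genes called (right). The 3 M0 KD lines fall and the 3 M0 NS lines rise with GC content, and the fold change runs from 0.32 to -0.30 as fitted and lies near 0 with the trend removed.

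**Figure D2:**
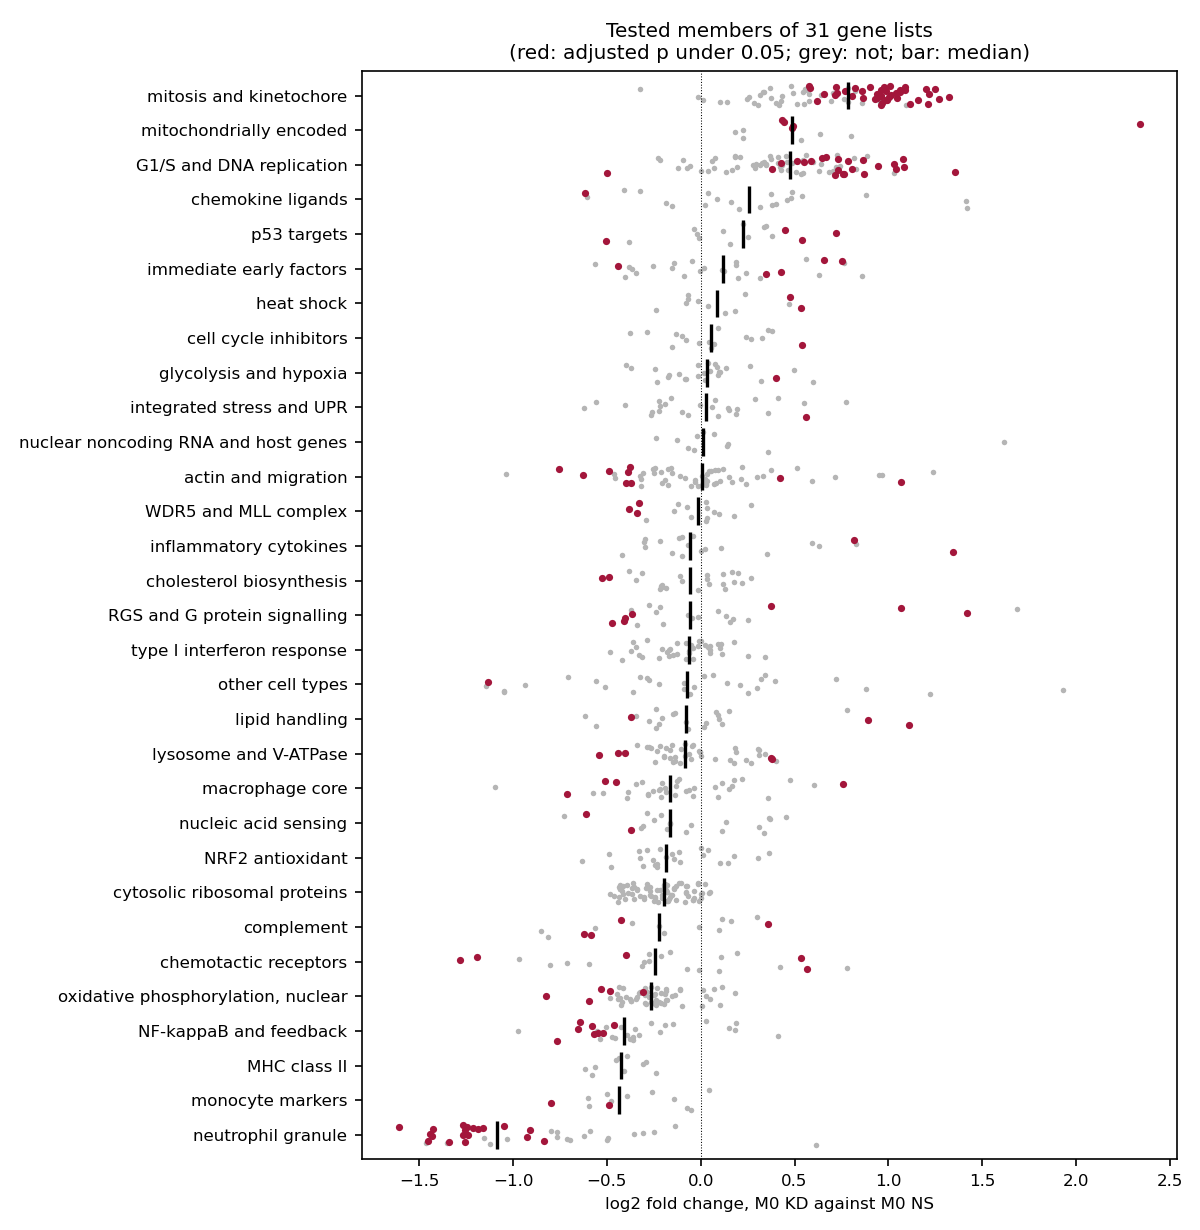
Log2 fold changes of M0 KD against M0 NS (x axis) for the tested members of 31 gene lists, ordered by the median, which is drawn as a bar; red points passed an adjusted p under 0.05 and grey points did not. Mitosis and kinetochore genes lie farthest to the right, with 42 of 79 called higher, and neutrophil granule genes farthest to the left, with 19 of 38 called lower. The shares over all genes tested were 3.98% higher and 4.08% lower.

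Mitotic genes made up the largest block of rises among the lists. Of 79 genes of mitosis and the kinetochore, the protein assembly that joins chromosomes to the spindle, 42 rose and none fell (edgeR, adjusted p under 0.05). Beside these and the counts by role, 3.98% of all genes tested were called higher and 4.08% lower. The median log2 fold change was 0.78, beside -0.002 over all genes tested, and 77 members lay above 0. With the trend removed the median was 0.61 and no member with known transcript properties was called; Casc5, which has none and so was not adjusted, was called at an unchanged value. In the fit with all 6 libraries as they are, 74 of the 76 members with a known GC content lay above the median of their own GC bin. Without M0 NS replicate 4 edgeR called 67 members higher and 1 lower (median 0.98), and without M0 KD replicate 4 it called 19 higher (median 0.67). By role, 14 of 19 kinetochore and centromere genes rose, 15 of 25 spindle and motor genes, 6 of 12 mitotic kinases, 6 of 17 genes of condensins, cohesion and anaphase, and 1 of 6 mitotic cyclins and phosphatases. Together the 79 genes took 0.0944, 0.0902 and 0.123% of counts in M0 NS (replicates 1, 2 and 4), against 0.147, 0.161 and 0.179% in M0 KD. These shares did not overlap, and the exact two-sided permutation test gave p = 0.1, the smallest that 3 against 3 libraries allow. In bulk RNA, more dividing cells and more such RNA per cell cannot be told apart.

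Values per library follow here and below in the order of replicates 1, 2 and 4. Hmmr, a microtubule-associated protein of the spindle, was at 5.55, 5.14 and 9.11 CPM in M0 NS and 15.7, 15.9 and 17.98 CPM in M0 KD (log2 fold change 1.32 with SE 0.21, adjusted p = 0.0234). Kif11, the motor that pushes spindle poles apart, was at 12.3, 11.7 and 17.1 CPM in M0 NS and 24.4, 27.5 and 30.3 CPM in M0 KD (log2 fold change 1.001 with SE 0.15, adjusted p = 0.0234). Every M0 KD library lay above every M0 NS library for both genes, and M0 NS replicate 4 was the highest of the controls. The motor gene Kif20b was at 9.397, 9.07 and 10.5 CPM in M0 NS and 18.5, 18.6 and 21.2 CPM in M0 KD (log2 fold change 1.01 with SE 0.11, adjusted p = 0.0121). At the kinetochore, Spc25, a subunit of the microtubule-binding NDC80 complex, was at 5.57, 5.29 and 8.04 CPM in M0 NS and 11.97, 14.2 and 13.97 CPM in M0 KD (log2 fold change 1.09 with SE 0.17, adjusted p = 0.0234). Its scaffold gene Casc5 was at 4.54, 4.503 and 5.42 CPM in M0 NS and 11.3, 9.39 and 12.8 CPM in M0 KD (log2 fold change 1.21 with SE 0.15, adjusted p = 0.0156). The spread within each group was small beside the gap between them. Bub1, a kinase of the spindle checkpoint, was at 5.49, 5.14 and 8.07 CPM in M0 NS and 10.2, 13.6 and 16.6 CPM in M0 KD (log2 fold change 1.11 with SE 0.22, adjusted p = 0.0307), and Mastl, the kinase that holds back a phosphatase at mitotic entry, at 3.398, 3.44 and 4.404 CPM in M0 NS and 8.56, 8.26 and 9.31 CPM in M0 KD (log2 fold change 1.22 with SE 0.15, adjusted p = 0.0153). Of the condensin genes, which fold mitotic chromosomes, Smc2 was at 28.5, 29.7 and 30.3 CPM in M0 NS and 48.4, 51.8 and 56.2 CPM in M0 KD (log2 fold change 0.82 with SE 0.08, adjusted p = 0.0121). Top2a, which untangles DNA and marks cells in late cycle, was at 51.7, 48.3 and 71.7 CPM in M0 NS and 94.8, 102 and 124 CPM in M0 KD (log2 fold change 0.90 with SE 0.17, adjusted p = 0.0278). The proliferation marker Mki67 rose as well (0.72), whereas the mitotic cyclin Ccnb1 did not pass (log2 fold change 0.86 with SE 0.25, adjusted p = 0.075) although its ranges did not overlap.

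Genes of the G1/S transition and DNA replication moved the same way to a lesser degree. Of 76 genes 22 rose and 1 fell, with a median log2 fold change of 0.47, and 69 lay above 0. Without M0 NS replicate 4 the count was 49 higher and 1 lower, without M0 KD replicate 4 it was 8 higher, and with the trend removed 1 member, Cdk6, was called with the median at 0.45. Nucleotide supply and fork repair genes led, with 9 of 19 higher, followed by 7 of 23 polymerase and fork genes, 4 of 18 origin licensing genes and 2 of 16 cyclins, kinases and E2F factors. Ccne2, the cyclin that starts S phase with CDK2, was at 4.57, 4.44 and 5.53 CPM in M0 NS and 12.2, 10.99 and 13.99 CPM in M0 KD (log2 fold change 1.35 with SE 0.15, adjusted p = 0.0121). Cdk6, the kinase of D-type cyclins, was at 92.3, 87.5 and 73.3 CPM in M0 NS and 135, 142 and 144 CPM in M0 KD (log2 fold change 0.73 with SE 0.10, adjusted p = 0.0165). In these genes the 3 M0 KD libraries lay above all controls. Atad2, a chromatin ATPase of replicating cells, was at 28.5, 27.3 and 30.7 CPM in M0 NS and 45.8, 48.7 and 47.6 CPM in M0 KD (log2 fold change 0.72 with SE 0.08, adjusted p = 0.0121). Ccnd3, a D-type cyclin, was the member that fell, at 51.1, 58.3 and 65.6 CPM in M0 NS and 40.9, 38.9 and 44.2 CPM in M0 KD (log2 fold change -0.50 with SE 0.10, adjusted p = 0.0317). Its relative Ccnd1 was at 74.3, 83.9 and 127 CPM in M0 NS and 147, 167 and 268 CPM in M0 KD, without overlap but also without a call (adjusted p = 0.0783). Of 17 cell cycle inhibitors and quiescence genes only Ccng1, a p53 target, was called (0.54), beside 8.06% of all genes tested. The other counts of this paragraph are to be read beside the shares over all genes tested, 3.98% higher and 4.08% lower.

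Promoters of mitotic genes are known to carry CCAAT boxes, which bind NF-Y, and the cell cycle homology region (CHR), through which the DREAM and MuvB complexes act. Those of S-phase genes carry E2F sites, and C/EBP factors act at neutrophil granule genes. In RefSeq promoter windows of 300 bases (250 before and 50 after the start, GRCm38.p6) both strands were searched for these letters. TTTGAA, the CHR, was in 47 of 72 windows of the mitotic list (65.3%), which matched 66 genes by symbol, against 17.9% of 32851 windows in all and 17.8% of the 73 windows of the replication list. CCAAT was in 73.6% of the mitotic and 54.8% of the replication windows, against 37.4% in all. At least 1 of the E2F forms TTTCCCGC, TTTGGCGC, TTTCGCGC and TTTGCCGC was in 31.5% of the replication and 9.72% of the mitotic windows, against 2.26% in all. TTGCNNAA, a C/EBP form, was in 13 of 36 windows of the neutrophil list (36.1%, from 34 genes), against 10.8% in all. Gene lists share function, so these shares describe the lists and say nothing of which factor acted. The 250 bases before the start of 2 genes from each end are printed, as Kif11 and Top2a show the CHR and CCAAT letters and Ngp and Ltf the C/EBP letters, with each match on either strand in capitals. Kif11 is at chr19:37376132-37376381 on the plus strand, Top2a at chr11:99024190-99024439 on the minus strand, Ngp at chr9:110419558-110419807 and Ltf at chr9:111019042-111019291, both on the plus strand. Each is read 5′ to 3′ along its gene.
Kif11: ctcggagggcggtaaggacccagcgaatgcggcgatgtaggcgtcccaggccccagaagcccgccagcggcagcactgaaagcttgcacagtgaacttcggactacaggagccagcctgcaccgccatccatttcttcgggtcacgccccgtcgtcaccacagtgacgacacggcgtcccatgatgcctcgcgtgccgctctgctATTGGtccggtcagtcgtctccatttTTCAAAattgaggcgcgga
Top2a: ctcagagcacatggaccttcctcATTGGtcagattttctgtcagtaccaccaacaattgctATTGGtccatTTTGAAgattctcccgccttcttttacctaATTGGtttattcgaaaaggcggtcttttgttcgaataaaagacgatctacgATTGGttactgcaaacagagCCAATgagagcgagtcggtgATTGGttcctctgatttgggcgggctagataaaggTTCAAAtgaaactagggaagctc
Ngp: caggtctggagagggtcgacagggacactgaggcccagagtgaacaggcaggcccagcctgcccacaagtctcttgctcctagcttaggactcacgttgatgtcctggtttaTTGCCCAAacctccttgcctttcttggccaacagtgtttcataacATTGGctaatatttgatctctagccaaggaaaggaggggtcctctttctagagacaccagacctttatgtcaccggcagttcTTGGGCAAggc
Ltf: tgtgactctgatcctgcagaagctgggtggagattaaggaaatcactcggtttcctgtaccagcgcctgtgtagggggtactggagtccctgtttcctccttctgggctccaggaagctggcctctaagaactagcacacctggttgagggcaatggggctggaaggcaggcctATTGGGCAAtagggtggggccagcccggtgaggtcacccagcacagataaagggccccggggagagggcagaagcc
Kif11 held 1 CHR match, 19 to 14 bases before the start, and 1 CCAAT match 45 to 41 bases before it. Top2a held 2 CHR and 6 CCAAT matches. The C/EBP matches of Ngp lay 138 to 131 and 11 to 4 bases before the start, and in Ltf the C/EBP and CCAAT letters overlapped, 76 to 68 bases before it.

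Neutrophil granule genes fell most as a list. Of the 40 listed 38 passed the filter on low counts, and Stfa2 and Stfa3, at 2 to 16 counts per library, did not. Of the 38 tested 19 fell and none rose, with a median log2 fold change of -1.09, and 37 lay below 0. The exception, Anxa1, which macrophages also express, was at 442, 448 and 611 CPM in M0 NS and 599, 574 and 1129 CPM in M0 KD (log2 fold change 0.62 with SE 0.29, adjusted p = 0.206). Without M0 NS replicate 4 the count was 17 lower (median -0.81), without M0 KD replicate 4 it was 7 lower (median -0.96), and with the trend removed 1 member, Hp, was called, with the median at -0.95. By role, 10 of 16 secondary and tertiary granule genes fell, 8 of 17 cytosolic and surface genes, and 1 of 5 primary granule genes. These counts are to be read beside 4.08% called lower over all genes tested. The 40 genes took 0.270, 0.243 and 0.410% of counts in M0 NS and 0.186, 0.180 and 0.253% in M0 KD, an overlap of M0 NS replicate 2 with M0 KD replicate 4 (exact two-sided permutation test, p = 0.2). Without Anxa1, left out after its values were seen, the other 39 genes took 0.226, 0.200 and 0.348% in M0 NS and 0.126, 0.123 and 0.135% in M0 KD, which did not overlap (p = 0.1 by the same exact test, the smallest possible). Fewer neutrophil precursors and less such RNA per cell cannot be told apart.

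Among secondary granule genes, Ngp, neutrophilic granule protein, was at 469, 409 and 699 CPM in M0 NS and 213, 214 and 232 CPM in M0 KD (log2 fold change -1.26 with SE 0.19, adjusted p = 0.0234). Ltf, which encodes lactoferrin, was at 379.5, 313 and 577 CPM in M0 NS and 174, 178 and 184 CPM in M0 KD (log2 fold change -1.24 with SE 0.21, adjusted p = 0.0263). Lcn2, which encodes the iron carrier scavenger lipocalin 2, was at 112, 109 and 187 CPM in M0 NS and 58.9, 54.9 and 56.2 CPM in M0 KD (log2 fold change -1.27 with SE 0.21, adjusted p = 0.0263). The M0 KD libraries lay close together in all 3 genes and below every control, and M0 NS replicate 4 was far above the other controls. Hp, which encodes haptoglobin, differed in that its controls were nearly equal, at 36.1, 36.6 and 36.1 CPM in M0 NS and 18.7, 20.3 and 18.2 CPM in M0 KD (log2 fold change -0.93 with SE 0.08, adjusted p = 0.0121). The gelatinase gene Mmp9 did not follow, at 54.3, 51.4 and 71.5 CPM in M0 NS and 28.9, 33.2 and 86.9 CPM in M0 KD (log2 fold change -0.25 with SE 0.46, adjusted p = 0.762), and M0 KD replicate 4 was its highest library. S100a8 and S100a9, the subunits of calprotectin, were at 212, 186 and 346 CPM in M0 NS and 111, 101 and 109 CPM in M0 KD, and at 369, 334 and 612 CPM in M0 NS and 189.9, 178 and 187 CPM in M0 KD, with log2 fold changes of -1.21 and -1.24. Cebpe, the factor of granulocyte maturation, was at 6.56, 7.39 and 13.8 CPM in M0 NS and 3.43, 3.69 and 3.801 CPM in M0 KD (log2 fold change -1.34 with SE 0.28, adjusted p = 0.0321). Of the primary granule genes, Prtn3, a serine protease, was at 8.81, 8.31 and 13.02 CPM in M0 NS and 3.55, 4.08 and 5.58 CPM in M0 KD (log2 fold change -1.19 with SE 0.23, adjusted p = 0.0277), while Mpo, myeloperoxidase, did not pass at 29.1, 25.1 and 34.9 CPM in M0 NS and 13.1, 14.95 and 24.3 CPM in M0 KD (adjusted p = 0.0946). Both made the same picture of 3 M0 KD libraries below 3 controls. Of 12 monocyte markers 2 fell, beside 4.08% of all genes tested. Ly6c2, a surface marker of inflammatory monocytes, was at 47.04, 52.4 and 51.2 CPM in M0 NS and 24.6, 28.1 and 33.8 CPM in M0 KD (log2 fold change -0.80 with SE 0.12, adjusted p = 0.0222), and the coagulation factor gene F13a1 changed by -0.49. Itga2b, an integrin of megakaryocytes, was the 1 called gene of 30 markers of other cell types, at 7.91, 6.05 and 8.56 CPM in M0 NS and 3.76, 2.59 and 3.896 CPM in M0 KD (log2 fold change -1.14 with SE 0.21, adjusted p = 0.0263).

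**Figure D3:**
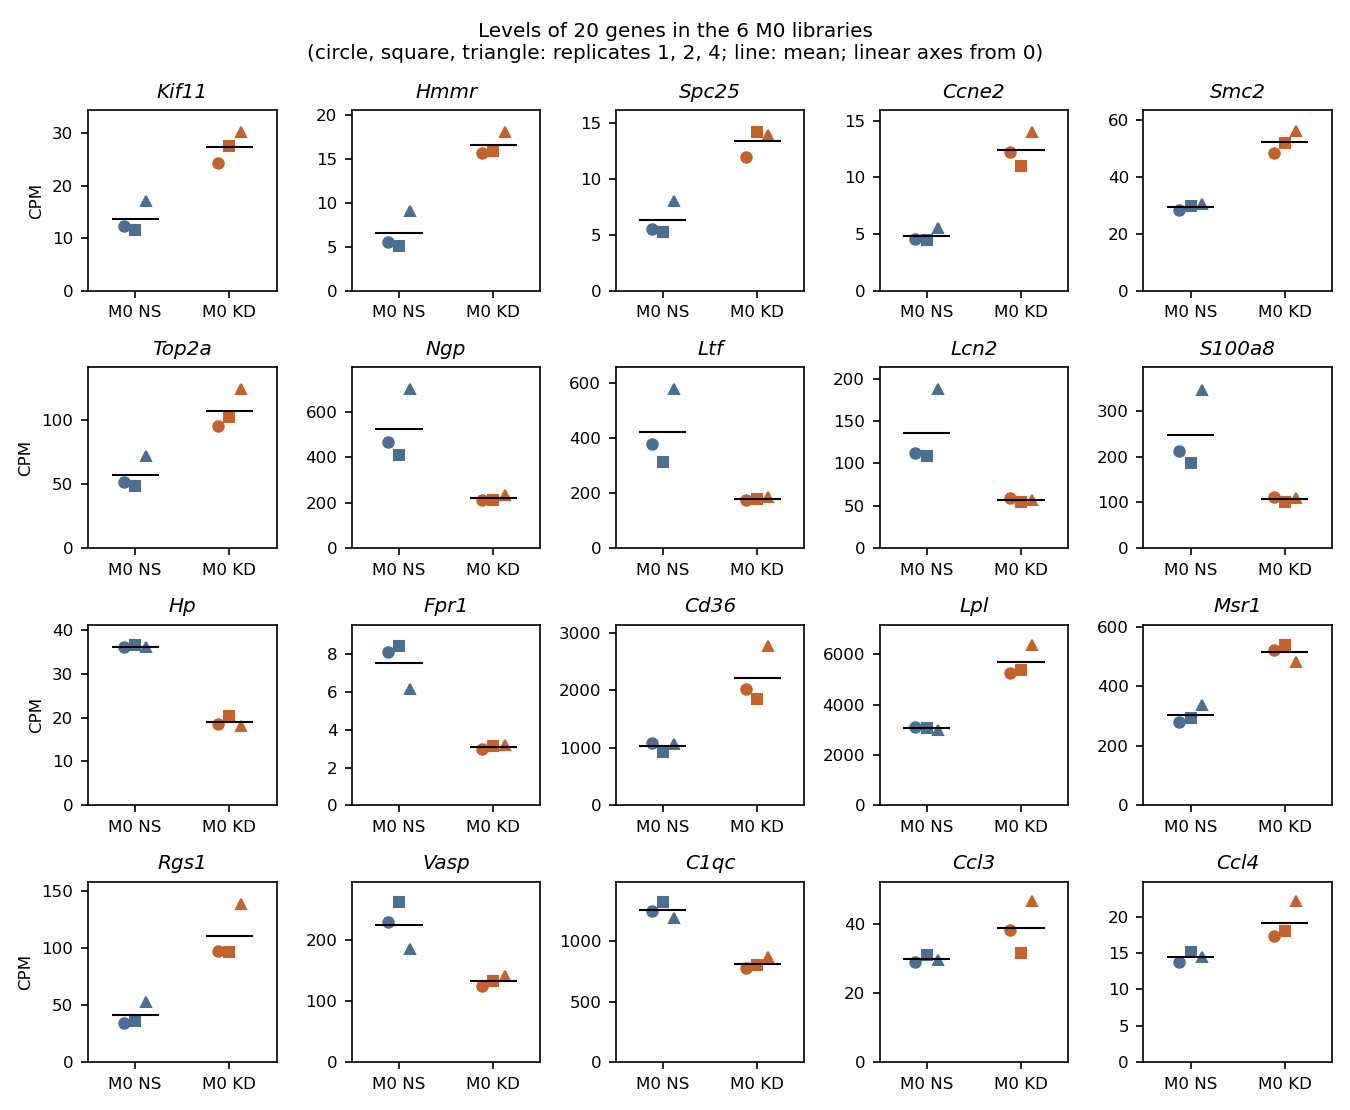
CPM (y axes, linear from 0) of 20 genes in the 3 M0 NS and 3 M0 KD libraries, with circles, squares and triangles for replicates 1, 2 and 4 and a line at the group mean. Kif11 runs from 11.7 to 17.1 CPM in M0 NS and from 24.4 to 30.3 in M0 KD, and Ngp from 409 to 699 in M0 NS and from 213 to 232 in M0 KD.

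Few macrophage genes were called. Of 38 core genes of receptors and transcription factors 1 rose and 3 fell. The median log2 fold change of the list was -0.16 (-0.09 with the trend removed), and 27 of the 38 lay below 0. Over all genes tested 3.98% were called higher and 4.08% lower, and the list counts of this paragraph are to be read beside these shares. Msr1, a scavenger receptor for modified lipoproteins, was at 279, 295 and 338 CPM in M0 NS and 523, 539.8 and 482 CPM in M0 KD (log2 fold change 0.76 with SE 0.10, adjusted p = 0.0171). The transcription factor genes Cebpb (-0.71), Tfeb (-0.51) and Spi1 (-0.45), which encodes the lineage factor PU.1, fell. In lipid handling, 2 of 23 genes rose and 1 fell, with a median of -0.08. Cd36, a fatty acid and lipoprotein receptor, was at 1073, 933 and 1063 CPM in M0 NS and 2012, 1840.3 and 2761 CPM in M0 KD (log2 fold change 1.11 with SE 0.16, adjusted p = 0.0202). Lpl, lipoprotein lipase, was at 3109, 3076 and 3006 CPM in M0 NS and 5272, 5391 and 6356 CPM in M0 KD (log2 fold change 0.89 with SE 0.11, adjusted p = 0.0153). Both were higher in every M0 KD library than in any control, and M0 KD replicate 4 was the highest. Nr1h2, which encodes the oxysterol receptor LXR beta, fell by a small margin (log2 fold change -0.37 with SE 0.09, adjusted p = 0.043), whereas the efflux transporter genes Abca1 (-0.07) and Abcg1 (-0.24) were not called. Apoe was at 16919, 17672 and 20140.0 CPM in M0 NS and 13398, 14149 and 9549.9 CPM in M0 KD and was not called (log2 fold change -0.56 with SE 0.16, adjusted p = 0.0652). Of 24 cholesterol biosynthesis genes Mvd (-0.52) and Mvk (-0.49) fell, and none rose. With the trend removed no macrophage core, lipid handling or cholesterol gene was called. The values were then 0.41 for Msr1, -0.38 for Cebpb, -0.18 for Tfeb, 0.73 for Cd36, 0.69 for Lpl and -0.07 for Nr1h2.

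In complement, 3 of 15 genes fell and 1 rose, beside 4.08% lower and 3.98% higher over all genes tested. C1qc, a chain of the initiating protein C1q, was at 1246, 1327 and 1193 CPM in M0 NS and 775, 799 and 867 CPM in M0 KD (log2 fold change -0.62 with SE 0.10, adjusted p = 0.0231), and its partner C1qb at 1916, 2072 and 1697 CPM in M0 NS and 1249.8, 1221 and 1323 CPM in M0 KD (log2 fold change -0.58 with SE 0.11, adjusted p = 0.0263). The third chain gene, C1qa, was at 257, 274 and 291 CPM in M0 NS and 117, 111 and 239.7 CPM in M0 KD and was not called (adjusted p = 0.139), with M0 KD replicate 4 near the controls. Cfp, which encodes properdin, also fell (-0.43), and the complement inhibitor gene Cd59a rose (0.36). Of 45 lysosome and proton pump genes 3 hydrolase genes fell, the cathepsin genes Ctsh (-0.54) and Ctsz (-0.44) and the glucosidase gene Gaa (-0.40), and the pump subunit genes Atp6v1c1 (0.38) and Atp6v1h (0.38) rose. With the trend removed no complement, lysosome or proton pump gene was called. The values were then -0.35 for C1qc, -0.31 for C1qb, -0.20 for Cfp, -0.53 for Ctsh, -0.17 for Ctsz and 0.20 for Atp6v1c1.

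Chemokine ligand genes gave little in M0. Of 22 tested 1, Cxcl16, was called, beside 8.06% of all genes tested, and with the trend removed it lost its call (log2 fold change -0.55). The list's median of 0.26 turned to -0.12 without M0 KD replicate 4. Cxcl16, a membrane-bound chemokine that also takes up lipoprotein, was at 204, 223 and 173 CPM in M0 NS and 123, 128 and 139 CPM in M0 KD (log2 fold change -0.62 with SE 0.11, adjusted p = 0.0262). Ccl3 and Ccl4, which attract leukocytes, are neighbours on chromosome 11 of GRCm38 (Ccl3 at 83647844 to 83649355 on the minus strand, Ccl4 at 83662584 to 83664683 on the plus strand). Ccl3 was at 29.1, 30.9 and 29.7 CPM in M0 NS and 38.4, 31.5 and 46.6 CPM in M0 KD (log2 fold change 0.38 with SE 0.13, adjusted p = 0.102). The values of Ccl4 were 13.8, 15.2 and 14.5 CPM in M0 NS and 17.4, 17.98 and 22.1 CPM in M0 KD (log2 fold change 0.40 with SE 0.11, adjusted p = 0.0605). Every M0 KD library lay above the controls in both genes, for Ccl3 by little in replicate 2, and neither passed this test. Among 21 alternative settings, each of the genes passed an adjusted p under 0.05 in at least 1. Their neighbours Ccl9 and Ccl6 were at 383, 433 and 310.1 CPM in M0 NS and 399, 371 and 777 CPM in M0 KD, and at 432, 432 and 411 CPM in M0 NS and 389, 346 and 688 CPM in M0 KD. In both only M0 KD replicate 4 stood above the controls. Ccl2 and Ccl7, ligands of CCR2, were at 10.9, 9.37 and 18.3 CPM in M0 NS and 15.8, 16.3 and 70.7 CPM in M0 KD, and at 5.12, 4.17 and 5.53 CPM in M0 NS and 6.86, 6.003 and 26.5 CPM in M0 KD, again with M0 KD replicate 4 far above the rest and no call (adjusted p = 0.250 and 0.213).

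Single genes of receptors and signalling parts of chemotaxis changed in both directions. Of 22 chemotactic receptor genes 2 rose and 3 fell, beside 3.98% higher and 4.08% lower over all genes tested. Fpr1, a receptor for formylated bacterial peptides, was at 8.096, 8.43 and 6.15 CPM in M0 NS and 2.95, 3.14 and 3.21 CPM in M0 KD (log2 fold change -1.28 with SE 0.17, adjusted p = 0.0156), and it kept its call with the trend removed (log2 fold change -1.34, adjusted p = 0.0426). Ltb4r1, a receptor for leukotriene B4, was at 7.75, 7.36 and 12.3 CPM in M0 NS and 4.12, 3.69 and 4.16 CPM in M0 KD (log2 fold change -1.19 with SE 0.21, adjusted p = 0.0262). Both belong to receptors that neutrophils carry as well. Ccr1, a receptor for Ccl3 and related ligands, was at 91.98, 90.3 and 99.9 CPM in M0 NS and 141, 139 and 137 CPM in M0 KD (log2 fold change 0.57 with SE 0.08, adjusted p = 0.0165), and the oxysterol receptor gene Gpr183 rose (0.53) while the nucleotide receptor gene P2ry6 fell (-0.40). Ccr2 was not called (log2 fold change -0.07 with SE 0.13, adjusted p = 0.746). RGS proteins switch off the G proteins under these receptors. Rgs1 was at 34.7, 36.3 and 53.1 CPM in M0 NS and 97.8, 96.1 and 138 CPM in M0 KD (log2 fold change 1.42 with SE 0.21, adjusted p = 0.0235), Rgs18 at 24.95, 26.5 and 21.5 CPM in M0 NS and 47.2, 43.5 and 61.8 CPM in M0 KD (log2 fold change 1.06 with SE 0.14, adjusted p = 0.0172), and Rgs2 rose by less (0.37). The lowest M0 KD library of Rgs1 lay well above the highest control. Gnai2, the G protein subunit under chemokine receptors, fell (log2 fold change -0.41 with SE 0.10, adjusted p = 0.0438), as did Gnb2 (-0.40), the kinase gene Grk6 (-0.37) and Arrb2 (-0.48), which encodes an arrestin that shuts off activated receptors. In all 3 of the 22 genes of this list rose and 4 fell. With the trend removed no member was called, with Rgs1 at 0.97, Rgs18 at 0.65 and Arrb2 at -0.30.

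Of 62 actin and migration genes 2 rose and 7 fell, with a median of 0.01, beside 3.98% higher and 4.08% lower over all genes tested. Vasp, which lengthens actin filaments at the leading edge, was at 228, 261 and 185 CPM in M0 NS and 125, 133 and 141 CPM in M0 KD (log2 fold change -0.76 with SE 0.13, adjusted p = 0.0235). Rac2, a GTPase of blood cell migration, was at 296, 342 and 295 CPM in M0 NS and 215, 225 and 224 CPM in M0 KD (log2 fold change -0.49 with SE 0.09, adjusted p = 0.0263). M0 NS replicate 4 was the lowest control for Vasp, and no M0 KD library reached it. Pfn1 (-0.39), Coro1a (-0.37), Coro1b (-0.40), Zyx (-0.38) and the integrin gene Itgb7 (-0.63) also fell. The formin gene Diap3, which also serves cell division, rose (log2 fold change 1.07 with SE 0.19, adjusted p = 0.0263), as did Itga6 (0.42). With the trend removed no actin or migration gene was called, with Vasp at -0.54 and Rac2 at -0.35.

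NF-kappaB subunit and feedback genes were lower, with 8 of 30 called, all lower, and a median of -0.41. Over all genes tested 4.08% were called lower and 3.98% higher. Without M0 NS replicate 4 the list count was 14 lower, without M0 KD replicate 4 it was 5 lower, and with the trend removed it was 0 (median -0.35). Zc3h12a, an RNase that degrades inflammatory messages, was at 34.9, 34.7 and 33.8 CPM in M0 NS and 23.5, 19.2 and 23.5 CPM in M0 KD (log2 fold change -0.64 with SE 0.10, adjusted p = 0.0228). Nfkbia, the inhibitor that holds NF-kappaB in the cytosol, was at 112, 114 and 109 CPM in M0 NS and 81.3, 80.7 and 71.6 CPM in M0 KD (log2 fold change -0.52 with SE 0.08, adjusted p = 0.0228). The controls of these genes were close to each other, and every M0 KD library was below them. Bcl3, a nuclear cofactor, was at 42.7, 49.8 and 40.5 CPM in M0 NS and 22.9, 25.9 and 29.4 CPM in M0 KD (log2 fold change -0.76 with SE 0.12, adjusted p = 0.0228), and Relb (-0.66), Nfkb2 (-0.57), Nfkbib (-0.55), Tnip1 (-0.46) and Tnfaip2 (-0.58) fell too. Among 20 cytokine and effector genes 2 rose, both at low levels. Il12b, a subunit of interleukin 12, was at 0.929, 1.004 and 0.793 CPM in M0 NS and 2.18, 2.01 and 2.73 CPM in M0 KD (log2 fold change 1.34 with SE 0.24, adjusted p = 0.0263), and Ptgs2, the inducible cyclooxygenase, at 5.97, 6.57 and 6.35 CPM in M0 NS and 9.79, 10.7 and 12.8 CPM in M0 KD (log2 fold change 0.82 with SE 0.14, adjusted p = 0.0234). Tnf (-0.11) and Il1b (-0.30) were not called. None of 39 type I interferon response genes was called (median -0.06), and in Ifit2, for example, M0 NS ran from 178 to 808 CPM and M0 KD from 384 to 548.

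Of 11 mitochondrially encoded transcripts 5 rose (median 0.48, and 0.09 with the trend removed). The largest change was that of mt-Nd4l, a subunit of complex I, which was hardly detected at 0.133, 0.0913 and 0.0547 CPM in M0 NS and 0.537, 0.551 and 0.3801 CPM in M0 KD (log2 fold change 2.34 with SE 0.47, adjusted p = 0.0299). The other 4 were mt-Nd2 (0.48), mt-Nd4 (0.49), mt-Nd5 (0.44) and mt-Nd6 (0.43). The share of counts was taken over a larger set, all 35 genes whose names start with mt-. It was 1.12, 1.02 and 1.14% in M0 NS and 1.37, 1.28 and 1.45% in M0 KD (exact two-sided permutation test, p = 0.1, the smallest possible). Of 61 nuclear genes of oxidative phosphorylation 5 fell and none rose (median -0.26), and 38 had all M0 KD values below all controls, against 18.8% of all genes tested. Ndufa7, a subunit of complex I, was at 43.6, 44.9 and 58.7 CPM in M0 NS and 25.04, 28.1 and 29.9 CPM in M0 KD (log2 fold change -0.83 with SE 0.13, adjusted p = 0.0234). No cytosolic ribosomal protein gene of 77 was called by edgeR (median -0.20, and -0.10 with the trend removed). Of the 77, 73 lay below 0, and 31 had all M0 KD values below all controls, against 18.8% of all genes tested. DESeq2 called 10 of them lower. The sources used here do not give how their pseudogenes were counted. The chaperone genes Hsp90aa1 (0.53) and Hspd1 (0.47) rose, as 2 of 12 heat shock genes, and Asns, asparagine synthetase, rose as 1 of 26 stress genes (log2 fold change 0.56 with SE 0.11, adjusted p = 0.0302). Of 15 p53 targets Plk2 (0.72), Ccng1 and Rrm2b (0.45) rose, and Bbc3, which encodes the death protein PUMA, fell (-0.51). Of 16 genes of WDR5 and the MLL complexes, which methylate histone H3 at active promoters, the methyltransferase genes Kmt2b (log2 fold change -0.34 with SE 0.08, adjusted p = 0.037) and Setd1b (-0.33) and the cofactor gene Men1 (-0.38) fell, and Wdr5 itself was not called (0.03). Growth factor feedback genes Spred1 (0.76) and Spred2 (0.66) rose with Fos (0.43) and Egr1 (0.35), as 4 of 28 immediate early and feedback genes, and Jund fell (-0.44). With the trend removed, no gene of this paragraph was called. As fitted, 3.98% of all genes tested were called higher and 4.08% lower, and the counts of these lists are to be read beside those shares.

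The effect in M0 was then set against that in M1, tested as the log2 fold change in M1 minus that in M0 in 1 fit of the 11 libraries. The M1 KD libraries were numbered 5 and 6, and those of M1 NS 1, 2 and 4, as in M0. What the numbers stand for cannot be told apart from the effect in M1 or from the difference between the states. The difference was called for 4095 of 15024 genes (27.3%), and in M1 17.6% of genes were called higher and 19.2% lower. Of the 545 genes that rose in M0, 77 (14.1%) rose and 147 (27%) fell in M1, which is 2.91 and 5.09% of the genes called in M1. Of the 558 that fell in M0, 131 (23.5%) rose and 99 (17.7%) fell there, and the difference was called for 238 and 241 of the genes in the 2 sets (43.7 and 43.2%). The M0 genes were chosen by 1 side of this contrast, and the slope with GC content had opposite signs in the states, so the shares are a description.

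Fpr1 fell in both states and further in M1, where it was at 126, 122 and 254 CPM in M1 NS and 2.41 and 5.27 CPM in M1 KD (log2 fold change -5.47; difference -4.17, SE 0.49, adjusted p = 2.26e-04). Spc25 rose in both and further in M1, at 1.15, 0.831 and 1.06 CPM in M1 NS and 15.6 and 15.6 CPM in M1 KD (log2 fold change 3.93; difference 2.85, SE 0.29, adjusted p = 1.05e-04). The direction was shared and the size was not. For Ccl3 and Ccl4 the log2 fold changes in M1 were -2.24 and -2.72, and the differences from M0 were called (difference -2.61, SE 0.44, adjusted p = 0.00151, and difference -3.12, SE 0.61, adjusted p = 0.00344). Il12b, higher in M0, was lower in M1, at 840.5, 768 and 438 CPM in M1 NS and 98.3 and 214 CPM in M1 KD (difference -3.47, SE 0.49, adjusted p = 5.59e-04). Cebpb, lower in M0, was higher in M1, at 145, 166 and 135 CPM in M1 NS and 561 and 512 CPM in M1 KD (difference 2.58, SE 0.24, adjusted p = 6.62e-05). For Il12b and Cebpb the signs were opposite in the states. Rgs1 (1.72 in M1) and Ccne2 (1.55) rose in both without a called difference (difference 0.30, SE 0.38, adjusted p = 0.585, and difference 0.21, SE 0.42, adjusted p = 0.75). The list counts that follow are to be read beside the shares over all genes tested. These were 17.6% higher and 19.2% lower in M1, and 27.3% with a called difference. Of the mitotic list 31 genes rose and 1 fell in M1, and the difference was called for 16 of 79, 8 in each direction. Of the neutrophil list 12 of 39 fell and 5 rose in M1, and the difference was called for 8. Cytosolic ribosomal protein genes had 0 calls and a median of -0.20 in M0. In M1 61 of 77 were higher, and the difference was called for 58.

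**Figure D4:**
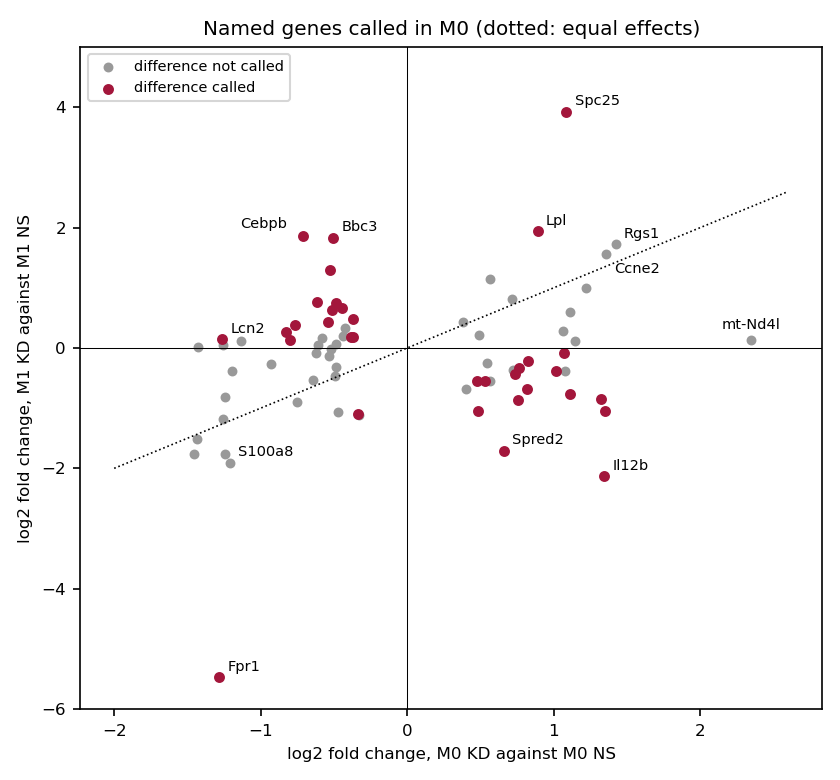
Log2 fold change of M0 KD against M0 NS (x axis) and of M1 KD against M1 NS (y axis) for the named genes called in M0, with red points where the difference between the effects passed an adjusted p under 0.05. Fpr1 and Spc25 lie far from the dotted line of equal effects, and Rgs1 and Ccne2 lie close to it.

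**Figure D5:**
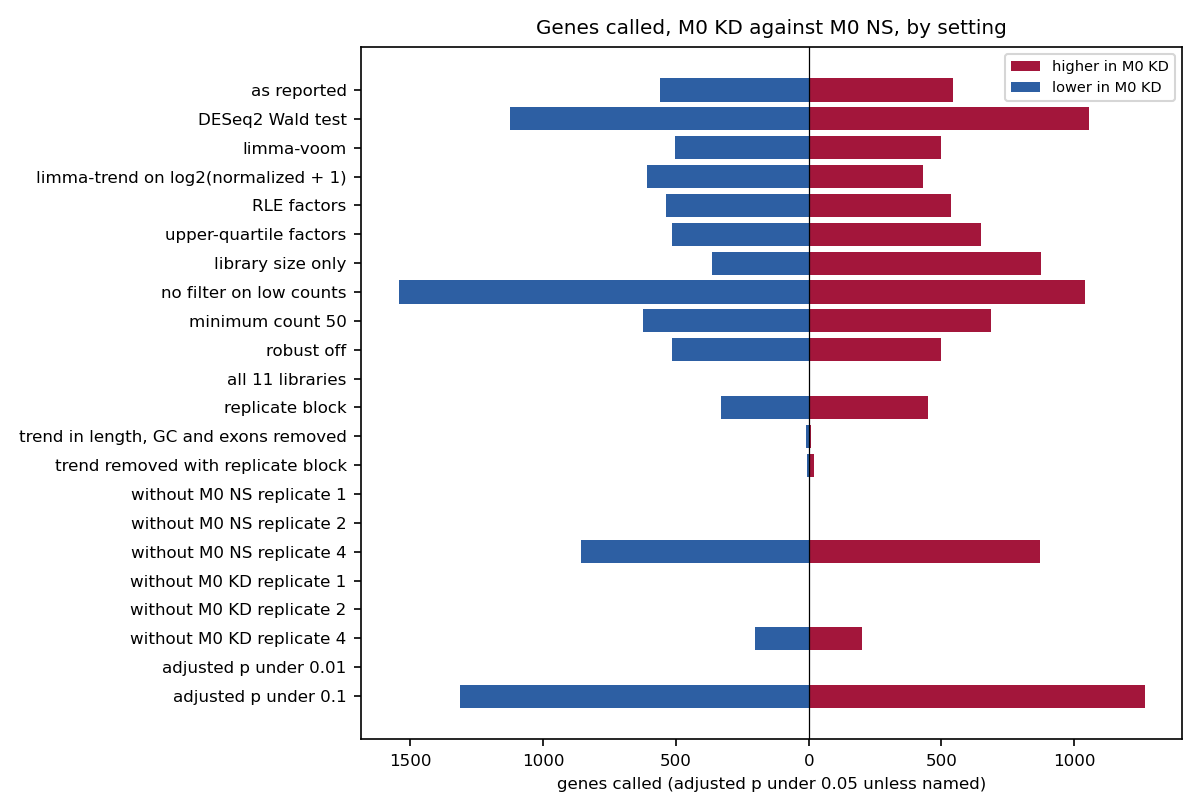
Number of genes called in M0 KD against M0 NS (x axis, lower to the left and higher to the right of 0) under each setting tried. The bars run from 0 genes, with replicate 1 or 2 of either group left out, all 11 libraries fitted together or an adjusted p under 0.01, to 2585 genes with no filter on low counts.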

How the data were processed

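RNA was sequenced from 11 libraries of M0 and M1 BMDM, of which the 6 M0 libraries were compared. The submitters' processing notes list STAR 2.5.2b, Trimmomatic 0.36, Subread 1.5.2 with featureCounts, and the mouse build GRCm38. The sources used here do not give the annotation, the strand setting or the treatment of shared reads. The deposited count table holds raw whole-number counts per gene. Its entry with a blank name (2.40e-04 to 3.05e-04% of an M0 library) was left out. The other deposited file gives a normalized signal (22812 genes), which was checked to be the authors' raw count divided by 1 constant per library, and it served 1 alternative. Depth was 33472828 to 40444283 counts per M0 library, with a common biological coefficient of variation of 0.15.

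Counts were tested with edgeR 4.0.16 in R 4.3.3 (filterByExpr with a minimum count of 10 and total of 15, TMM factors, glmQLFit with the robust option, glmQLFTest) on the 6 M0 libraries alone, and for the difference between states on all 11. A call is an adjusted p (Benjamini-Hochberg, all tested genes) under 0.05. Replicates were taken from the labels, group only entered the model, and each SE is that of the log2 fold change. Shares of counts were compared by exact two-sided permutation tests. Alternatives used DESeq2 1.42.0, limma 3.58.1 (voom, and trend on log2 of the normalized values plus a pseudocount of 1), other scaling, filters and thresholds, a replicate block, each library left out, and a smooth trend (mgcv 1.9.3) in GC content, exon number and length of the longest GENCODE M21 transcript removed per library, known for 95.1% of genes tested (the others were not adjusted). The fit of the 6 libraries was tried on data simulated once, in which 100 genes were changed 1.5-fold and 100 genes 2-fold. It called 35% of the former and 67% of the latter, and 11 genes that were not changed, among 13469 tested. The simulated counts were drawn independently for each gene and library, with no trend in GC content. The shares recovered may therefore not hold for the real libraries.

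The 31 gene lists (998 entries, 991 matched, 4 by an older symbol), the rule for named genes and the comparison itself were chosen with earlier results of these data known, so list counts are descriptions. The rule named Ccl3 and Ccl4, the 10 largest rises and falls among called genes with an established symbol, no overlap of ranges and a mean log2 CPM from 3 upwards, up to 3 called members of each list by smallest p, and where none was called the member with the smallest p. Further list members were named after their values were seen, to explain counts, and some list members are not reported here. Promoter sequences are from RefSeq, GRCm38.p6.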

Additional observations from a re-analysis of the deposited data

Results flagged for a closer look

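For 34 of the 75 named genes called in M0, the effect of the MERRICAL GapmeR differed between M1 and M0 by the test of the difference itself (edgeR, interaction over 11 libraries, adjusted p from 3.67e-05 to 0.0465), beside 27.3% of all genes tested. The 75 were chosen by their M0 call, 1 side of this contrast, so the count is a description. Over all genes called in M0 the difference was called for 43.7% of those that rose and 43.2% of those that fell. Values are the log2 fold change in M1 minus that in M0, and no explanation was tested. M1 KD carries other replicate numbers than the rest, and what these stand for cannot be told apart from the difference. Among cell division genes the difference was 2.85 for Spc25, and it was negative for Hmmr (-2.16), Bub1 (-1.87), Kif20b (-1.39), Cdk6 (-1.15), Diap3 (-1.14) and Smc2 (-1.03). Of the genes of neutrophils and monocytes it was 1.42 for Lcn2 and 0.94 for Ly6c2. Of receptors, chemokines and inflammatory genes it was -4.17 for Fpr1, -3.47 for Il12b, -1.49 for Ptgs2, 1.40 for Cxcl16 and 1.15 for Bcl3. Spred2 and Spred1, inhibitors of growth factor signalling, were at -2.36 and -1.60, and Flrt2, an adhesion gene, at -2.39. Of macrophage and lipid genes the scavenger receptor gene Msr1 was at -1.08, Lpl at 1.06, Nr1h2 at 0.86, Cebpb at 2.58 and Tfeb at 1.16. The cholesterol genes Mvd and Mvk were at 1.83 and 1.24, and the cathepsin genes Ctsz and Ctsh at 1.12 and 0.98. Ndufa7 was at 1.11 and mt-Nd2 at -1.52, and the chaperone genes Hsp90aa1 and Hspd1 at -1.08 and -1.02. Bbc3 was at 2.35, the antiviral factor gene Irf3 at 0.56, Men1 at 0.58 and Kmt2b at -0.75.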

How the results depend on the processing

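No named gene changed sign under any setting (82 genes, 80 with DESeq2 and with a minimum count of 50), while the calls depended on the libraries. Apart from Ccl3 and Ccl4, these genes were named by their calls or p-values in the same libraries. A kept sign was thus largely set by that choice and is no measure of robustness. Beside 1103 genes, DESeq2 called 2180, no filter on low counts gave 2585, and an adjusted p under 0.1 gave 2578. The count was 0 at an adjusted p under 0.01 (4012 at an unadjusted p under 0.05) and 0 with all 11 libraries in the fit (1947 unadjusted; lowest adjusted p 0.190). Leaving out 1 library gave 0 to 1726 genes, with 0 for replicates 1 and 2 of both groups (all 75 named calls lost), 403 without M0 KD replicate 4 (29 lost) and 1726 without M0 NS replicate 4 (4 lost). Removing the trend in GC content, exon number and length left 19 genes, 17 of them among the 1103, and 3 of the 19 lack the properties and were not adjusted. Of 75 named calls 72 were lost there, all but Cdk6, Fpr1 and Hp. Other scaling, voom, limma-trend, a minimum count of 50 and the robust option off gave 1000 to 1313.

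With the replicate block 782 genes were called, 642 of them shared, and 25 when the trend was removed as well. Same-numbered M0 libraries deviated together for number 1 (r = 0.25 over 8831 genes) and not for numbers 2 (-0.21) and 4 (-0.003), so the numbers were not taken to pair the samples. No paired analysis was possible for the difference between states because M1 KD shares no number with the other groups. That difference was called for 4057 to 4667 genes with other tools, scaling and filters and 2949 to 4751 with 1 library left out. The ratio of M0 KD to M0 NS shares ran from 0.595 to 0.805 for neutrophil granule genes (0.671 with all, 0.495 without Anxa1, chosen after seeing the data). For the 35 mitochondrially encoded genes the ratio ran from 1.21 to 1.29 (1.25 with all). No scaling factor enters these shares, so scaling by library size was not run for them. The cause of these changes in count was not tested. With 3 libraries a group, genes changed by little or held at a few counts could be missed. In the simulated data some genes changed 2-fold were missed as well, as 67% of them were called.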

Other observations

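MHC class II genes, which present antigen to T cells, differed among the M0 KD libraries. Of 10 genes, M0 KD replicate 1 lay below all controls in 10, replicate 2 in 9 and replicate 4 in 4, and replicate 4 lay above all controls in the other 6. Cd74, the invariant chain, was at 327, 339 and 330.1 CPM in M0 NS and 105, 114 and 447 CPM in M0 KD. H2-Ab1, a class II beta chain, was at 94.5, 93.9 and 85.3 CPM in M0 NS and 29.5, 34.7 and 114 CPM in M0 KD, and Ciita, the master regulator of the class, at 8.84, 9.52 and 7.17 CPM in M0 NS and 3.49, 4.43 and 13.6 CPM in M0 KD. In these 3 genes M0 KD replicate 4 lay above the controls, whereas H2-DMa, which helps to load peptide, was at 52.96, 49.1 and 54.4 CPM in M0 NS and 28.98, 30.2 and 46.6 CPM in M0 KD, with replicate 4 below them. None of 10 class II genes was called by edgeR in the 6 libraries (median -0.42), and without M0 KD replicate 4, a setting that calls 403 genes in all, 7 were lower (median -0.999). In M1 the median was 0.77, with 3 of 10 higher.

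Several genes set the replicates numbered 4 apart in both groups. Among 8831 genes whose mean log2 CPM was 3 or more, 92 differed at least 2-fold between M0 NS replicate 4 and the mean of the other controls, and 63 did so for M0 KD replicate 4 (log2 of CPM + 1). Of these, 7 were high in both libraries, namely Mmp12, Plau, Itgax, Nes, Folr2, F7 and Efr3b. The integrin gene Itgax was at 53.6, 42.9 and 163 CPM in M0 NS and 59.3, 60.9 and 199 CPM in M0 KD, and the elastase gene Mmp12 at 354, 251 and 937 CPM in M0 NS and 645, 634 and 1733 CPM in M0 KD. Another 10 moved in opposite directions. The chemokine gene Cxcl10 was at 66.9, 94.9 and 28.7 CPM in M0 NS and 27.5, 26.2 and 71.4 CPM in M0 KD, and Id3, an inhibitor of DNA-binding factors, at 38.7, 32.98 and 161 CPM in M0 NS and 90.9, 119 and 8.46 CPM in M0 KD. For Cxcl10 replicate 4 of each group was near replicates 1 and 2 of the other group. These genes were chosen after their values were seen, and the cause was not tested. Such genes were not particular to libraries of the same number. Between M0 NS replicate 2 and M0 KD replicate 4, 3 genes were high in both, 5 low in both and 5 opposite.

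Type I interferon response genes differed widely among the controls, shown here by 2 genes chosen after their values were seen. Rsad2, an antiviral enzyme, was at 299, 473 and 119 CPM in M0 NS and 288, 229 and 389 CPM in M0 KD, and Irf7, a factor of the response, at 187, 400.4 and 114 CPM in M0 NS and 191, 156 and 155 CPM in M0 KD. M0 NS replicate 2 was the highest of the 6 libraries for both, and M0 NS replicate 4 the lowest. The median of the 39 genes was 0.32 without M0 NS replicate 2 and -0.33 without M0 NS replicate 4, where edgeR called 1 member, lower.

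With the trend in GC content, exon number and length removed, the largest changes among the 16 called genes with known transcript properties were those of Fpr1 (-1.34) and Pcp4l1 (1.11). Pcp4l1 was at 17.5, 20.4 and 23.5 CPM in M0 NS and 37.3, 36.4 and 44.1 CPM in M0 KD before removal, and Arap2, a regulator of small GTPases, at 17.4, 16.2 and 13.3 CPM in M0 NS and 31.7, 31.7 and 31.1 CPM in M0 KD. Both had no overlap between the groups.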
